A study of Homo sapiens with 6 samples.

Results

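The 10 genes described here encode the cyclins, cyclin-dependent kinases and kinase inhibitors that act in the G1 phase of the cell cycle: CCND1, CCND2, CCND3, CCNE1, CCNE2, CDK2, CDK4, CDK6, CDKN1B and CDKN2C. They were picked by symbol, as a functional set and not by a rule on their values, from the 30341 genes present in both deposited tables. Earlier results of these data were known when the set was chosen. Each symbol matched exactly 1 gene. Expression was measured by RNA sequencing of K562, a BCR-ABL-positive myeloid leukaemia line, to compare cells that live in doxorubicin with cells that do not. Untreated parental cells gave 1 sample with a library in each table, Parental_1 and Parental_2. A further sample was parental K562 given doxorubicin, an anthracycline and topoisomerase II poison, at 225 ng/ml for 48 h. The other 4 samples, ATC1 to ATC4, are what the labels call anthracycline-tolerant clones. Each came from its own well of 10000 seeded cells, among 480 wells first given 100 ng/ml, of which 21 still held living cells about 4 weeks after the move to 225 ng/ml, and all 4 clones were still in drug when sampled. A well started from many cells, so the labels do not show that a clone descends from 1 cell.

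Each clone was compared with Parental_1 and the 48 h library with Parental_2, the untreated library of the same table. Library totals ran from 12537146 to 21361758 counts. Levels are given in CPM, read counts relative to the library's size as scaled by the TMM method over all 7 libraries. All 12 K562 markers checked, among them GATA1, TAL1 and the embryonic and fetal globins, had reads in every library, with a summed level of 3942 to 11389 CPM. Lymphocyte markers summed to 10.2 to 33.7 CPM, with 6 of 8 below 1 CPM in every library. Fibroblast markers summed to 1.52 and 2.63 CPM in the untreated libraries to 16.6 to 65.6 CPM in the clones and to 24.9 CPM in the 48 h library, with 1 of 6 (LUM) below 1 CPM everywhere. Epithelial markers ran from 69.7 to 378 CPM, with KRT5 and KRT14 below 1 CPM everywhere, and monocyte and granulocyte markers from 30.1 to 113 CPM; in both lists the 48 h library was highest. Whether any of these markers has a part in the results below was not tested.

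A cell commits to dividing in G1. D-type cyclins bind CDK4 or CDK6, and these kinases begin the phosphorylation of the retinoblastoma protein RB1, which holds E2F transcription factors in check. E2F activity then brings on the E-type cyclins, which bind CDK2 and carry the cell into S phase. CDKN1B (p27) restrains cyclin E with CDK2, whereas CDKN2C (p18) belongs to the INK4 proteins, which bind CDK4 and CDK6. In K562 the BCR-ABL kinase is known to drive D cyclins and MYC through STAT5 and other pathways, p53 is not functional, and the INK4 locus holding CDKN2A and CDKN2B is deleted.

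Promoter sequence is shown for CDK4 and CDKN2C, because these were the genes of the set that lay below both untreated libraries in all 4 clones. RefSeq windows (GRCh38.p14, 250 bases before to 50 after a start site) were matched for 6 of the 10 members, with 11 start sites. CCND1, CCND2, CCNE2 and CDK2 had no window, so their promoters were not searched. Capitals mark the E-box CACGTG, the palindromic hexamer that MYC and related factors can bind. It was searched, together with TTCNNNGAA, the pattern of STAT factors, after the values were seen.
CDK4, chr12:57752261-57752560, minus strand: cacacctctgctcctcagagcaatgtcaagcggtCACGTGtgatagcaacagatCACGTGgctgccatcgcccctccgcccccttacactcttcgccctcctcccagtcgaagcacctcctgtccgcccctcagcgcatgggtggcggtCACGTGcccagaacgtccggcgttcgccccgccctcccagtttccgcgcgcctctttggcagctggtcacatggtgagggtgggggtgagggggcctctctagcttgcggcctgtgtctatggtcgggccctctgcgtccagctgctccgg
CDKN2C, start site 1, chr1:50960495-50960794, plus strand: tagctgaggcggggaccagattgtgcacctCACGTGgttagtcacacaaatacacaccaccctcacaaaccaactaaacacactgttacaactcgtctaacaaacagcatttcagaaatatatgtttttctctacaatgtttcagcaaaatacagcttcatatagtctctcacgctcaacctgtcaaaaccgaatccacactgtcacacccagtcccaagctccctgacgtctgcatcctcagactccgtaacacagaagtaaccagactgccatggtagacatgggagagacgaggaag
CDKN2C, start site 3, chr1:50969995-50970294, plus strand: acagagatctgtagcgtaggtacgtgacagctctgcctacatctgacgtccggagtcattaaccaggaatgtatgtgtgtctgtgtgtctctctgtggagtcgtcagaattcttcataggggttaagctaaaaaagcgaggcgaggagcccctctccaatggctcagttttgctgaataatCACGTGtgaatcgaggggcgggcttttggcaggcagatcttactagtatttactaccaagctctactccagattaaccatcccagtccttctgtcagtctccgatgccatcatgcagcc
The CDK4 window held 3 copies, beginning 216, 196 and 101 bases before the start site. Each of the CDKN2C windows shown held 1 copy, 220 and 69 bases before its start, and CDKN2C start site 2 held none. CDK6 start site 1 held 1 copy, which lies after the start. Of 35116 windows in the RefSeq table, 7.26% held at least 1 copy and 33 (0.0940%) held at least 3. Read on both strands, the E2F patterns TTTCGCGC, TTTGGCGC and TTTCCCGC had no match in any of the 11 windows, where 2.74% of all windows had 1 or more. TTCNNNGAA had no match in these 11 windows either, against 7.66% of all windows.

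Across the set, 0 genes passed when the 4 clones were tested against Parental_1 by edgeR's quasi-likelihood method with Benjamini-Hochberg adjustment, higher or lower, and 0.0% of the 18300 genes tested passed in either direction. At an unadjusted p under 0.05 the test gave 1 member higher (CCND2; 7.5% of all genes) and 0 lower (4.28%). CCND2 was above Parental_1 in all 4 clones, a pattern found in 1 of 10 members and in 26.8% of all genes. CCNE1, CCNE2, CDK4 and CDKN2C were below it in all 4 clones, 4 of 10 members against 25.3% of all genes. Measured against both untreated libraries, CCND2 stayed above in all clones (18.2% of all genes) and CDK4 and CDKN2C below (16.0%). At a 2-fold limit in all 4 clones, 0 members were higher (6.6% of all genes) and 0 lower (1.09%). The median log2 fold change was -0.22 over the 10 members and 0.11 over all genes. Scaling by library totals moved the median of all genes to 0.29 and that of the members to -0.03. The p-values rest on the spread between clones, with 3 residual degrees of freedom and the lone parental library assumed to vary as they do.

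**Figure D1:**
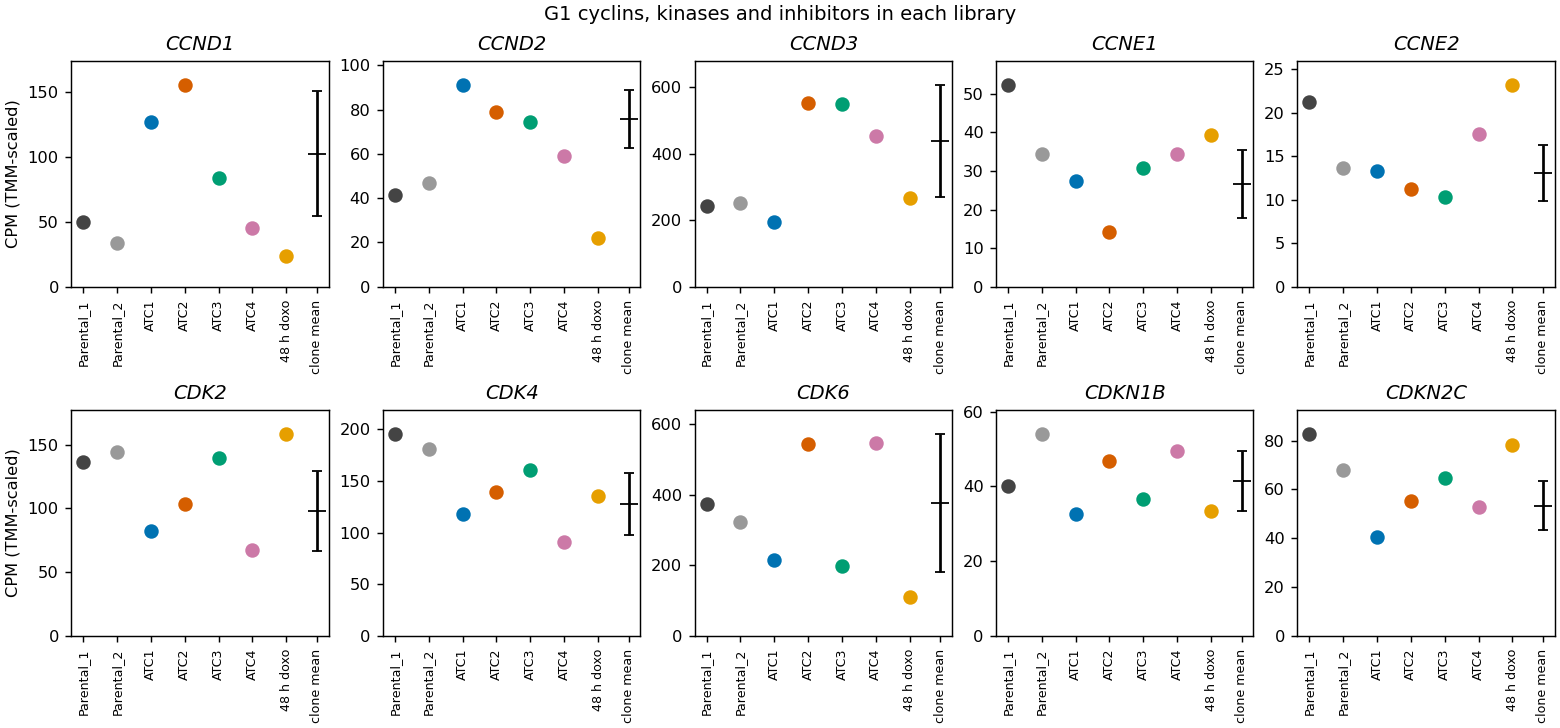
Level of each gene in CPM (TMM-scaled, linear axes from 0) in the 2 untreated libraries, the 4 clones and the 48 h doxorubicin library, with 1 point per library. The black mark and bar give the mean and SD of the 4 clones. CCND1 runs from 45.0 to 155 CPM and CDK6 from 198 to 547 CPM among the clones, and CCND2 lies above both untreated libraries in every clone.

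Among the D cyclins, CCND2 (ENSG00000118971; chromosome 12, 4273772 to 4305350, GRCh38) measured 41.7 CPM in Parental_1, 47.1 in Parental_2, 91.1, 78.9, 74.3 and 58.9 in ATC1 to ATC4, and 22.1 in the 48 h library. The lowest clone, ATC4, lay above the higher untreated library, and the 48 h library lay below all others. The clone mean was 75.8 ± 13.3 CPM (SD, n = 4). CCND2 had a log2 fold change of 0.88 ± 0.33 (SE, derived from the F statistic of the test, here and below; 95% interval 0.10 to 1.67), with an unadjusted p of 0.0325, and edgeR's quasi-likelihood fit gave an adjusted p of 0.406. Over the alternative settings the adjusted p ran from 0.107 to 0.608. The lowest value, here and for CDK4 and CDKN2C below, came from the edgeR fit with both untreated libraries. That fit counts 2 libraries of 1 sample as replicates. At least 2-fold, CCND2 was higher in ATC1 alone.

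CCND1 (ENSG00000110092; chromosome 11, 69641087 to 69654474) encodes a D cyclin often amplified in solid tumours. It measured 49.99 CPM in Parental_1, 33.9 in Parental_2, 126, 155, 83.3 and 45.0 in ATC1 to ATC4, and 23.7 at 48 h. The clones spread over 1.78 log2 units, a wider range than in 94.4% of the 9703 genes averaging at least 10 CPM over the clones and Parental_1, where the median range was 0.70. ATC4 lay between the untreated libraries, and the other 3 clones lay above both. The log2 fold change was 1.06 ± 0.65 (SE), and edgeR's quasi-likelihood test gave an adjusted p of 0.530. The untreated libraries themselves differed by -0.56 log2 units (Parental_2 over Parental_1), against a median size of 0.31 over the same 9703 genes. LTO1, on the other strand, overlaps CCND1 by 1399 bases and had 303 to 930 counts. Whether the counting used strand is not given in the sources, so reads from such overlaps cannot be told apart.

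CCND3 (ENSG00000112576; chromosome 6, 41934933 to 42050357) was the most abundant D cyclin per length in every library. It measured 241 CPM in Parental_1, 252 in Parental_2, 195, 551, 550 and 453 in ATC1 to ATC4, and 266 at 48 h. ATC2, ATC3 and ATC4 lay above both untreated libraries and ATC1 below both. The clone mean was 437 ± 168 CPM (SD, n = 4), its log2 fold change was 0.88 ± 0.59 (SE), and edgeR's quasi-likelihood fit gave an adjusted p of 0.557. The log2 ratios to Parental_1 were -0.31, 1.19, 1.19 and 0.91. The 20 tested coding genes nearest to CCND3, from APOBEC2 to RPL7L1 (chromosome 6, 41053304 to 42889925), had median log2 ratios of -0.95, 0.09, -0.20 and 0.20 in the same clones. In ATC1, 3 of these 20 genes lay above that clone's median for all genes, where 11, 6 and 14 did in ATC2 to ATC4. CCND3 lay above the median of its neighbours in all 4 clones.

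The 3 D cyclins were also added up per length, as CPM per kilobase of exon. This sum was 1.25, 2.39, 2.12 and 1.66 times that of Parental_1 in ATC1 to ATC4, and 1.27, 2.42, 2.15 and 1.68 times that of Parental_2. It was above 1 in all clones with library totals as well. CCND3 made up 71.98% and 76.1% of the sum in the untreated libraries, 46.3%, 68.8%, 77.4% and 81.7% in ATC1 to ATC4, and 85.2% at 48 h. In ATC1, CCND1 reached 36.1% and CCND2 17.6%, against 17.9% and 10.1% in Parental_1. With the longest transcript as length in place of all exons, the mean CCND3 share of the clones was 81.7% in place of 68.5%. The summed D cyclins of ATC1 then stood at 124.7 CPM per kb, close to Parental_1 (118.8) and Parental_2 (120.4). Those of ATC2 to ATC4 stood at 278, 261 and 209.

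**Figure D2:**
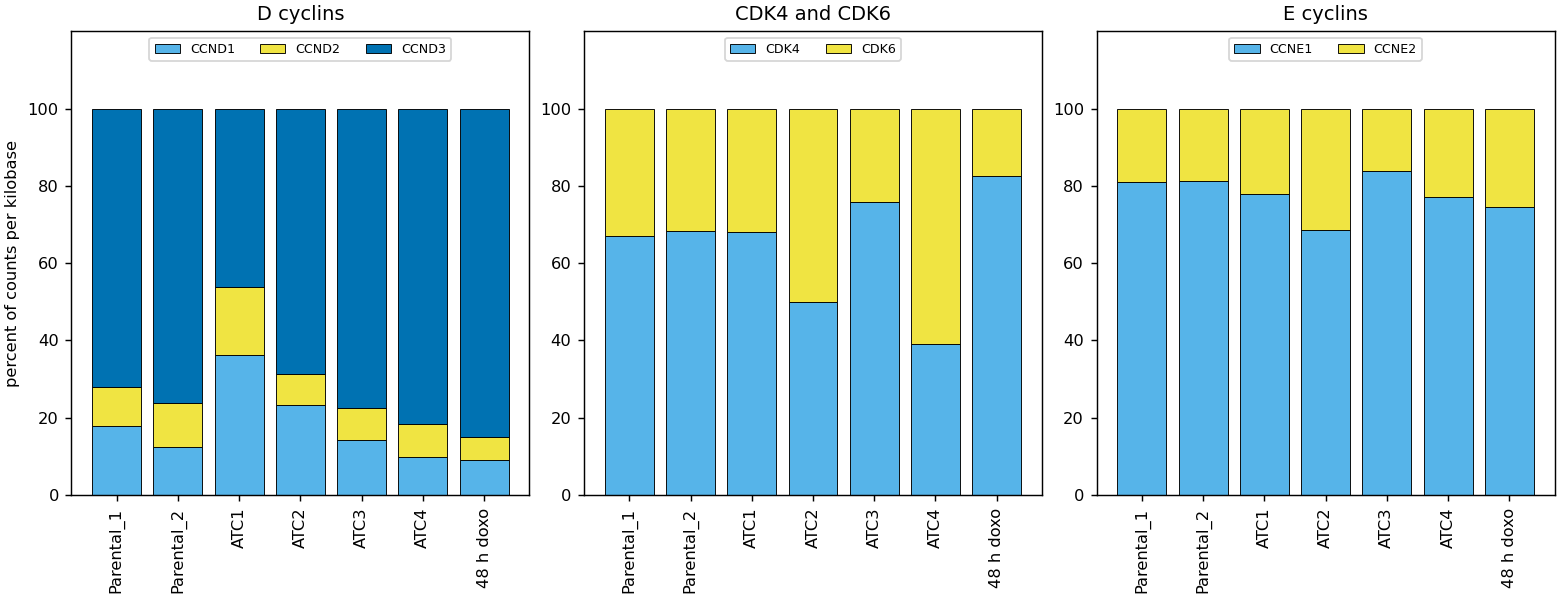
Share of each gene in its family, in percent of counts per kilobase of exon, stacked for each library: D cyclins on the left, CDK4 and CDK6 in the middle, E cyclins on the right. ATC1 has the smallest CCND3 share (46.3%), and CDK6 passes CDK4 in ATC2 (50.2%) and ATC4 (60.9%), though with the longest transcript as length only in ATC4 (51.9%).

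The kinases that pair with D cyclins followed different patterns. CDK4 (ENSG00000135446; chromosome 12, 57747727 to 57756013) measured 195 CPM in Parental_1, 181 in Parental_2, 118, 139, 161 and 90.7 in ATC1 to ATC4, and 135 at 48 h. All 4 clones lay below both untreated libraries. The log2 fold change was -0.60 ± 0.35 (SE), and edgeR's quasi-likelihood fit gave an adjusted p of 0.509 (0.242 to 0.695 over the alternatives). TSPAN31 and MARCH9 overlap CDK4 on the opposite strand by 2485 and 916 bases, with 324 to 595 and 116 to 422 counts beside 1812 to 3638 for CDK4.

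CDK6 (ENSG00000105810; chromosome 7, 92604921 to 92836594) divided the clones. It measured 374 CPM in Parental_1, 324 in Parental_2, 216, 543, 198 and 547 in ATC1 to ATC4, and 110 at 48 h. ATC1 and ATC3 lay below both untreated libraries, ATC2 and ATC4 above both, and no clone lay between them. The mean of 376 ± 195 CPM (SD, n = 4) was therefore close to Parental_1, and the log2 fold change of 0.03 ± 0.64 (SE; edgeR quasi-likelihood, adjusted p = 0.988) describes none of the clones. Its 95% interval, -1.49 to 1.54, holds changes of over 2-fold either way. The range between clones, 1.47 log2 units, was wider than in 90.6% of the 9703 genes.

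CDK6 lies on the long arm of chromosome 7, some way beyond ABCB1, the drug efflux pump gene. The 20 tested coding genes nearest to CDK6, from MTERF to COL1A2 (chromosome 7, 91692008 to 94431232), had median log2 ratios to Parental_1 of 0.58, 1.18, 0.39 and 2.13 in ATC1 to ATC4. Of these 20 genes, 15, 18, 11 and 20 lay above the clone's median for all genes. CDK6 itself stood at -0.79, 0.54, -0.92 and 0.55, below the neighbours' median in every clone and in the same order of pairs, with ATC2 and ATC4 above ATC1 and ATC3. Around the 8 members outside CDK6 and CCND3, the neighbours' medians ran from -0.58 to 0.46. The lowest of these was at CDK2 in ATC4. The neighbours were looked at after the members' values were known, and their part in the members' levels was not tested.

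**Figure D3:**
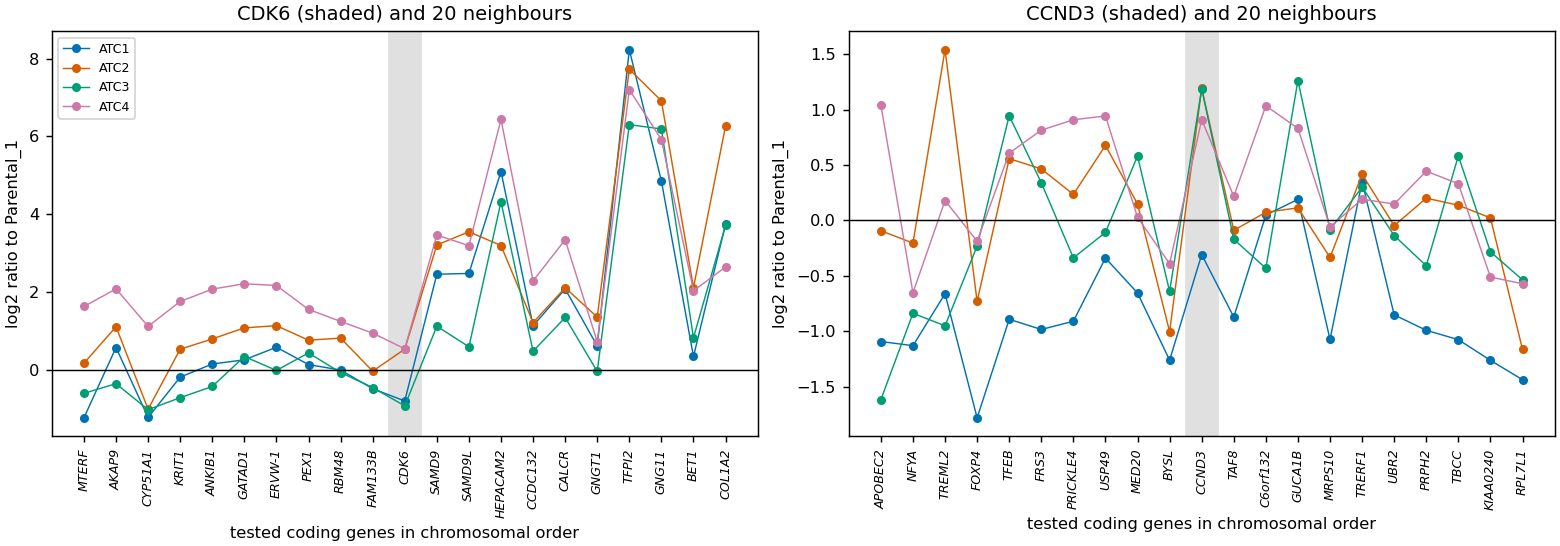
Log2 ratio of each clone to Parental_1 for CDK6 (left, shaded) and CCND3 (right, shaded) and the 20 nearest tested coding genes, in order along the chromosome. Left of CDK6 the ATC4 line runs highest throughout; around CCND3 the ATC1 line is mostly the lowest, with a neighbour median of -0.95.

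Both E cyclins were below Parental_1 in all 4 clones, but this rested on that library. CCNE1 (ENSG00000105173; chromosome 19, 29811898 to 29824308) measured 52.2 CPM in Parental_1, 34.3 in Parental_2, 27.3, 14.1, 30.8 and 34.3 in ATC1 to ATC4, and 39.4 at 48 h. ATC2 was lowest, and ATC4 was level with Parental_2 (log2 ratio 0.00). The clone mean was 26.6 ± 8.81 CPM (SD, n = 4), its log2 fold change was -0.95 ± 0.45 (SE), and edgeR's quasi-likelihood fit gave an adjusted p of 0.445. CCNE2 (ENSG00000175305; chromosome 8, 94879770 to 94896678) measured 21.2 CPM in Parental_1, 13.6 in Parental_2, 13.3, 11.2, 10.3 and 17.5 in the clones, and 23.2 at 48 h. Its log2 fold change was -0.68 ± 0.40 (SE; edgeR quasi-likelihood, adjusted p = 0.513), and in ATC4 it was 0.36 log2 units above Parental_2. The untreated libraries differed by -0.60 log2 units for CCNE1 and -0.63 for CCNE2, so the summed E cyclins per length were 0.543, 0.320, 0.570 and 0.690 times Parental_1 and 0.830, 0.489, 0.872 and 1.05 times Parental_2. CCNE1 made up 80.9% of that sum in Parental_1, 68.5% to 83.7% in the clones and 74.6% at 48 h. INTS8 and NDUFAF6 overlap CCNE2 on the opposite strand by 1977 and 912 bases, with 979 to 1651 and 288 to 683 counts beside 161 to 395 for CCNE2.

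CDK2 (ENSG00000123374; chromosome 12, 55966769 to 55972784), the partner of the E cyclins, measured 137 CPM in Parental_1, 145 in Parental_2, 82.2, 104, 140 and 67.0 in ATC1 to ATC4, and 158 at 48 h. ATC3 lay between the untreated libraries, and the other 3 clones lay below both. The log2 fold change was -0.46 ± 0.40 (SE; edgeR quasi-likelihood, adjusted p = 0.656). ATC4 held the lowest level of both CDK2 and CDK4, with log2 ratios of -1.03 and -1.11. PMEL spans the whole of CDK2 on the opposite strand, but had only 17 to 55 counts.

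The inhibitors CDKN1B and CDKN2C showed different patterns. CDKN1B (ENSG00000111276; chromosome 12, 12715058 to 12722371) measured 40.1 CPM in Parental_1, 53.9 in Parental_2, 32.7, 46.9, 36.7 and 49.5 in ATC1 to ATC4, and 33.5 at 48 h. ATC2 and ATC4 lay between the untreated libraries and ATC1 and ATC3 below both, and the log2 fold change was 0.07 ± 0.33 (SE; edgeR quasi-likelihood, adjusted p = 0.945; 95% interval -0.72 to 0.85). Its range between clones, 0.60 log2 units, was the smallest of the 10 genes. CDKN2C (ENSG00000123080; chromosome 1, 50960745 to 50974633) measured 82.6 CPM in Parental_1, 67.8 in Parental_2, 40.4, 55.2, 64.8 and 52.6 in ATC1 to ATC4, and 78.3 at 48 h. All 4 clones lay below both untreated libraries, ATC3 by only 0.07 log2 units under Parental_2. The log2 fold change was -0.62 ± 0.31 (SE; edgeR quasi-likelihood, adjusted p = 0.460, 0.259 to 0.663 over the alternatives).

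Clone by clone, the 2-fold limit picked out different members. At least 2-fold higher than Parental_1 were CCND1 and CCND2 in ATC1 (18.4% of all genes), CCND1 and CCND3 in ATC2 (21.5%), CCND3 in ATC3 (16.4%) and 0 members in ATC4 (16.6%). At least 2-fold lower were CDKN2C in ATC1 (6.3% of all genes), CCNE1 in ATC2 (10.8%), CCNE2 in ATC3 (9.34%), and CDK2 and CDK4 in ATC4 (5.9%). Between the untreated libraries 0 of 10 members were 2-fold apart, where 7.02% of all genes were higher and 8.25% lower in Parental_2. These calls depended on the scaling and on the untreated library. With library totals 1 of the 5 lower calls was left, CCNE1 in ATC2, and CCND2 in ATC2 and CCND3 in ATC4 joined the higher ones. Against Parental_2 the lower calls were CCNE1 in ATC2 and CDK2 in ATC4. CCND2 in ATC1 (log2 ratio 0.95) was no longer among the higher ones there, and CCND1 in ATC3 joined them.

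Per kilobase of exon, CDK4 stood highest in Parental_1 at 61.6 CPM per kb, followed by CCND3 (41.6), CDK2 (35.1), CDK6 (30.5), CDKN2C (24.9), CCNE1 (20.5), CDKN1B (14.3), CCND1 (10.4), CCND2 (5.82) and CCNE2 (4.82). In the clones CCND3 led at 75.4 ± 28.98 CPM per kb (SD, n = 4), above CDK4 (40.2 ± 9.47), CDK6 (30.7 ± 15.9), CDK2 (25.2 ± 8.11), CCND1 (21.2 ± 10.0) and CDKN2C (16.1 ± 3.02). CDKN1B (14.7 ± 2.86), CCND2 (10.6 ± 1.85), CCNE1 (10.4 ± 3.46) and CCNE2 (2.98 ± 0.73) followed. Neighbours in this order of the clones overlapped in their ranges, except CCNE1 and CCNE2. CDK6 made up 33.1% of CDK4 plus CDK6 in Parental_1, 31.6% in Parental_2, 32.0%, 50.2%, 24.1% and 60.9% in ATC1 to ATC4, and 17.4% at 48 h. With the longest transcript as length, CCND3 (100.7 CPM per kb) stood above CDK4 (94.0) in Parental_1, CDK2 (37.8) above CDK6 (32.4) in the clone means, and CDK6 made up 41.1% in ATC2 and 51.9% in ATC4.

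After 48 h of drug, parental cells held less CDK6 and CCND2 than Parental_2, and these were the members at least 2-fold lower (2 of 10, against 11.0% of the 13865 genes with 20 or more counts in the higher library). None of the 10 was at least 2-fold higher, against 14.3% of those genes. CDK6 had 1698 counts against 3824, a 2.93-fold lower level (95% interval 2.77 to 3.10). CCND2 had 339 counts against 556, or 0.469 of Parental_2 (0.408 to 0.537). With 1 library on each side there is no test, and these intervals cover counting error only. CDKN1B stood at 0.622 (0.552 to 0.699), CCND1 at 0.700 (0.606 to 0.808) and CDK4 at 0.749 (0.705 to 0.796) of Parental_2. CCNE2 stood at 1.70 (1.41 to 2.06), CDKN2C at 1.16 (1.06 to 1.27), CCNE1 at 1.15 (1.01 to 1.31), CDK2 at 1.09 (1.03 to 1.16) and CCND3 at 1.06 (1.01 to 1.11). The median log2 ratio was -0.17 over the members and -0.07 over all genes, both TMM-scaled. Library totals moved the median of all genes to 0.14, and the members' ratios up by the same amount. In bulk RNA, fewer cells in a phase of the cycle and less RNA per cell cannot be told apart.

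Set against Parental_1 instead, the 48 h library kept CDK6 low, at 0.295, while CCNE1 turned from above to below at 0.755 and CDKN2C to 0.948 (0.879 to 1.02). CCND1 then stood at 0.475 and CCND2 at 0.529. CCNE2 was still above 1, at 1.09 (0.945 to 1.27), an interval that includes no difference. The clones and the 48 h library were each compared with their own untreated library, and the members' values are given side by side. CCND2 was above Parental_1 in all 4 clones and below Parental_2 at 48 h, as 6.46% of 13768 genes were. CCNE1, CCNE2 and CDKN2C were below in all clones and above at 48 h, as 8.38% of those genes were.

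**Figure D4:**
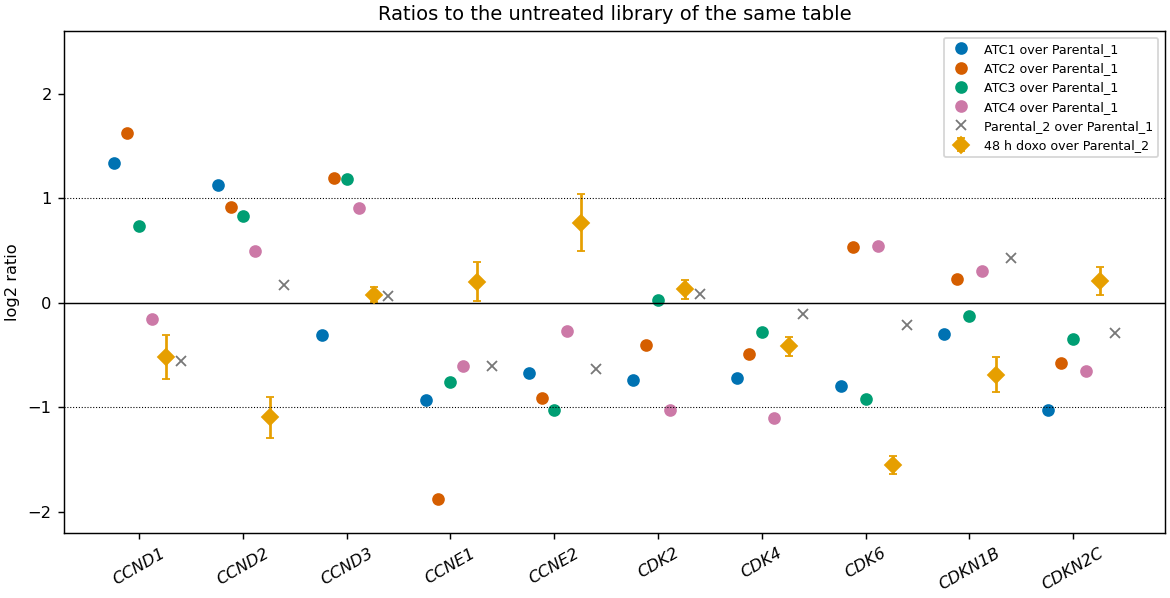
Log2 ratio of each clone to Parental_1 (circles), of the 48 h library to Parental_2 (diamonds, bars give the 95% counting interval) and of Parental_2 to Parental_1 (crosses), with dotted lines at 2-fold. CCND2 shows the clones at 0.50 to 1.13 and the 48 h library at -1.09, and CDK6 shows the clones on both sides of 0.

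Among the other CDK inhibitors, 2 of the 4 tested genes lay at least 2-fold above Parental_1 in every clone (6.6% of all genes) and 0 below (1.09%), and 0 of 4 passed edgeR's adjusted threshold. CDKN1A, the p21 inhibitor of CDK2 complexes and a p53 target, measured 17.6 CPM in Parental_1, 11.3 in Parental_2, and 112, 250, 205 and 115 CPM in ATC1 to ATC4, with no overlap. Its log2 fold change was 3.30 ± 0.64 (SE; edgeR quasi-likelihood, adjusted p = 0.271), and at 48 h it stood at 3.88 times Parental_2 (3.22 to 4.71) and 2.48 times Parental_1 (2.17 to 2.84). CDKN2D, another INK4 gene, measured 4.45 CPM in Parental_1, 6.60 in Parental_2, and 11.6, 17.5, 17.1 and 9.26 CPM in the clones, a log2 fold change of 1.66 ± 0.55 (SE). Against Parental_2 its log2 ratios were 0.81, 1.39, 1.36 and 0.48, so the 2-fold call did not hold in ATC1 and ATC4. CDKN1C, the p57 inhibitor, measured 15.9 CPM in Parental_1 and 5.84 in Parental_2, so the 48 h library stood at 3.91 times Parental_2 and 1.44 times Parental_1, and the clones lay on both sides of Parental_1 but all above Parental_2. CDKN2A and CDKN2B had 0 counts in all 7 libraries, which allows up to 0.134 to 0.254 CPM per library (3 counts of the scaled total).

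Genes downstream of RB1 lay mostly below Parental_1 in the clones, and none of them passed edgeR's adjusted threshold or was 2-fold apart in all 4 clones. Of the 15 E2F targets of the G1/S transition, 15 had a log2 fold change below 0, with a median of -0.57, where 44.3% of all genes tested were below 0. With library totals the 15 were still below 0, with a median of -0.39, where 6164 of the 18300 genes tested were. CCNA2, the S-phase cyclin that follows cyclin E, stood at -1.03 ± 0.27 (SE), with 146, 119, 168 and 148 CPM in the clones against 300.1 in Parental_1 and 346 in Parental_2. All 10 E2F genes and dimer partners were below 0 as well (median -0.43), but 7 of 10 with library totals. The untreated libraries also differed for both lists, with median log2 ratios of Parental_2 to Parental_1 of -0.22 for the E2F targets and -0.31 for the E2F genes and partners. Fitted against Parental_2, 13 of 15 targets (median -0.41) and 7 of 10 E2F genes and partners (median -0.15) were below 0, beside 44.3% of all genes. E2F1 itself measured 79.1 CPM in Parental_1, 41.8 in Parental_2, 67.1, 48.1, 79.6 and 94.1 in ATC1 to ATC4, and 130 at 48 h. Its log2 fold change in the clones was -0.12 ± 0.37 (SE). The 48 h library stood at 3.11 times Parental_2 (2.82 to 3.44) but 1.64 times Parental_1 (1.54 to 1.76), and all 4 clones lay above Parental_2. RB1 stood at 0.05 ± 0.29 in the clones and at 48 h at 0.557 of Parental_2 and 0.791 of Parental_1. Against Parental_2 its log2 ratios in ATC1 to ATC4 were -0.50, -0.20, -0.59 and -0.65, all below 0. The 9 pocket protein and repressor genes, RB1 included, had a median of -0.18 in the clones, with 5 of 9 below 0. Fitted against Parental_2, the median was -0.48 and 7 of 9 were below 0, beside 44.3% of all genes. At 48 h RBL1 was at 0.469 and LIN37 at 2.06 of Parental_2. Against Parental_1 these were 0.620 and 1.10, so neither was 2-fold apart there. The 10 markers of G2 and mitosis were all below 0 too, with a median of -0.39, and with library totals likewise, while 9 of 10 were below 0 against Parental_2 (median -0.47). At 48 h the medians over Parental_2 were 0.34 for the E2F targets and 0.36 for the mitotic genes, beside -0.07 over all genes. Above Parental_2 were 9 of 15 E2F targets and 7 of 10 mitotic genes, beside 46.7% of all genes. These medians were not taken against Parental_1.

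Of the genes that control the turnover of these proteins, 0 of 10 passed the adjusted threshold. In the clones 9 of 10 were below 0 (median -0.32), beside 44.3% of all genes. With library totals 7 of 10 were below 0, beside 6164 of the 18300 genes tested. Fitted against Parental_2, 10 of 10 were (median -0.22), beside 44.3% of all genes. SKP2, the ubiquitin ligase subunit that marks p27 for destruction, measured 113 CPM in Parental_1, 90.1 in Parental_2, and 42.8, 24.6, 38.2 and 71.5 CPM in ATC1 to ATC4. All 4 clones lay below both untreated libraries (log2 fold change -1.34 ± 0.48 SE; edgeR quasi-likelihood, adjusted p = 0.398), while the CDKN1B values of the clones and untreated libraries overlapped. At 48 h GSK3B, a kinase that marks cyclin D1 for export and breakdown, stood at 0.276 of Parental_2, and FBXW7, which targets cyclin E, at 0.309 (0.258 and 0.488 of Parental_1). In the CDK-activating kinase, 0 of 3 genes passed and MNAT1 stood at 0.368 at 48 h.

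Of 8 transcription factors upstream of D cyclins and CDKN1B, 0 passed, and 2 lay at least 2-fold above Parental_1 in every clone (6.6% of all genes). FOXO1, an activator of CDKN1B, stood at 2.43 ± 0.65 (log2 ± SE), from 1.23 CPM in Parental_1 to 6.59 ± 1.83 CPM (SD, n = 4). BCL6, a repressor known to act on CCND2, measured 7.08 CPM in Parental_1, 9.40 in Parental_2 and 19.8 ± 5.10 CPM in the clones (SD, n = 4), with ATC1 and ATC2 under 2-fold against Parental_2 (log2 ratios 0.95 and 0.60). STAT5A measured 652 CPM in Parental_1, 663 in Parental_2, 213, 245, 184 and 365 CPM in the clones, and 173 at 48 h, and all treated libraries lay below both untreated ones. Its log2 fold change was -1.36 ± 0.38 (SE; edgeR quasi-likelihood, adjusted p = 0.353), and at 48 h it was at 0.261 of Parental_2 and STAT5B at 0.182 (0.266 and 0.314 of Parental_1). MYC measured 403 CPM in Parental_1, 315 in Parental_2, 270, 219, 93.0 and 191 CPM in the clones and 130 at 48 h. Its log2 fold change was -1.04 ± 0.49 (SE), and at 48 h it stood at 0.412 of Parental_2; all treated libraries lay below both untreated ones. FOXO4 was 2.82-fold higher at 48 h.

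**Figure D5:**
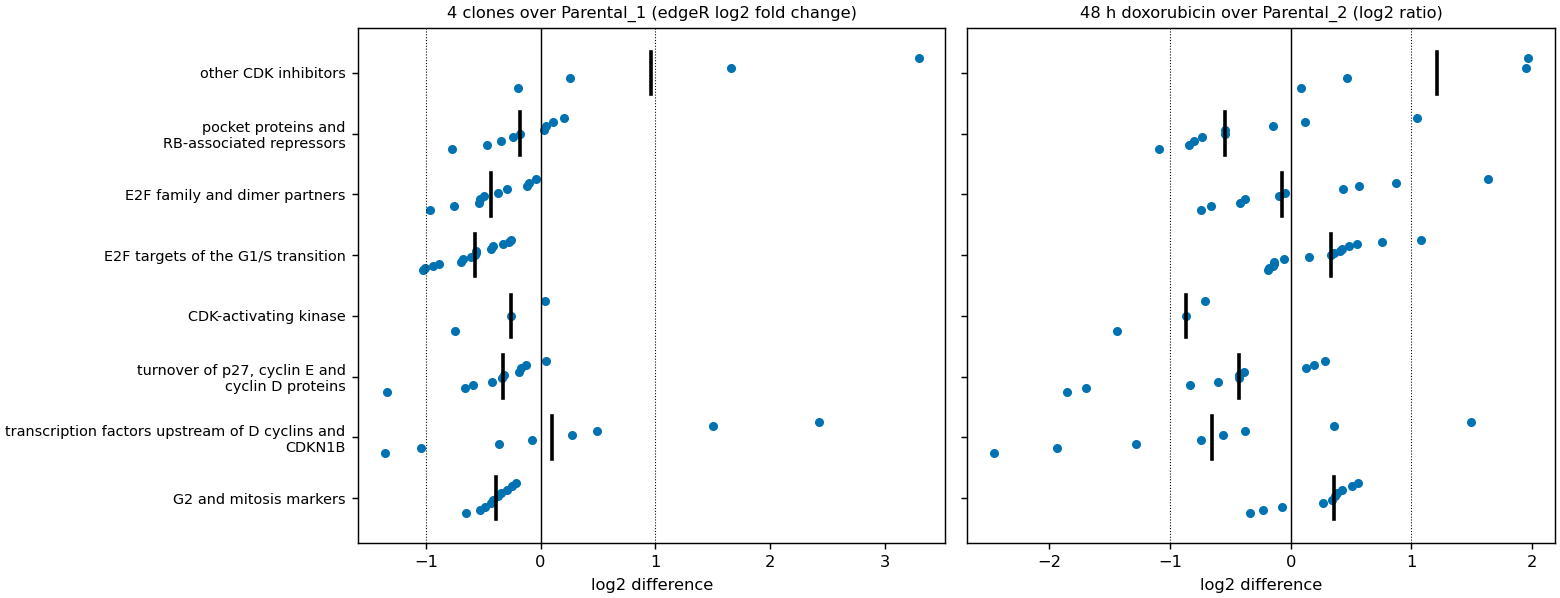
Log2 difference of each gene in 8 lists around the G1 set: on the left the edgeR log2 fold change of the 4 clones over Parental_1, on the right the 48 h library over Parental_2. Points are genes, black bars the list medians, dotted lines 2-fold. The 15 E2F targets all lie left of 0 in the clones, with a median of -0.57, and have a median of 0.34 at 48 h.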

How the data were processed

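RNA was read from poly(A)-selected, strand-marking TruSeq libraries, per the labels' protocols. The deposited tables hold counts of reads per gene to which the authors added 1. The 1 was taken off again, and values given as missing were set to 0. The authors' deposited log2 fold changes were checked and not used. Per the submitters' processing notes, GRCh38 was the build. No source used here names the aligner, the counter or its use of strand. Positions come by Ensembl ID from GENCODE 29, since those in the tables are of another build.

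edgeR 4.0.16 (R 4.3.3, quasi-likelihood, TMM, its filter on low counts) tested the 4 clones against Parental_1 over 18300 genes, with Benjamini-Hochberg adjustment at 0.05. Each SE was obtained by dividing the fold change by the root of F. For log2 ratios of single libraries the prior count was 2. The test was checked on simulated data. Alternatives were DESeq2 1.42.0, limma-voom (limma 3.58.1), other scalings, filters, prior counts and untreated libraries, and each clone left out. The labels do not say whether the 2 untreated libraries come from separate cultures. All 10 members were named; genes of the surrounding lists were named by a rule of size (the 2 largest each way) with a few always given. Members and lists were chosen with earlier results of these data known. Part of 1 list is not reported here. No sample was left out, and no per-sample column was left unused.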

Additional observations from a re-analysis of the deposited data

Results flagged for a closer look

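The share of CCND2 in the summed D cyclins per length set ATC1 apart from the other clones. At 17.6% against 7.98% to 8.61%, the gap to the nearest clone was 0.934 of the whole range, above Dixon's 95% critical value for 4 samples. Among the 19 groups screened the CCND2 share was the 1 flagged, and chance flags about 1 in 20. Shares within a family depend on each other, so the 19 groups are not independent.

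For 4 genes every clone lay on the opposite side of its untreated library from the 48 h library. The log2 ratio at 48 h was -1.09 for CCND2, 0.20 for CCNE1, 0.77 for CCNE2 and 0.21 for CDKN2C. Of 13768 genes, 6.46% were higher in all clones and lower at 48 h, and 8.38% the reverse. With the same untreated library on both sides, CCND2 alone kept the pattern for either library. Against Parental_1 the 48 h level was 0.755 for CCNE1 and 0.948 for CDKN2C. Against Parental_2 the log2 ratio of ATC4 was 0.00 for CCNE1 and 0.36 for CCNE2. These differences between clones and 48 h exposure were not tested, and each side has its own untreated library.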

How the results depend on the processing

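In every setting run, 0 members passed an adjusted p of 0.05. Over all genes edgeR called 0 higher and 0 lower, with 11 and 8 without the filter on low counts, 252 and 96 with both untreated libraries of the 1 parental sample, and 448 and 95 in DESeq2. Leaving out a clone gave 0 to 49 higher and 0 to 35 lower, the highest without ATC4. The 1 member above the untreated library in all clones (CCND2) became 2 with library totals or with Parental_2 (CCND1 joined), and 1 to 2 with a clone left out. CCND1 joined without ATC4 and CCND3 without ATC1. The 2 members at least 2-fold lower at 48 h became 1 (CDK6) with library totals.

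Of 100 fold changes of members under the alternatives to the edgeR fit, DESeq2 and limma-voom included, 93 kept their sign. The log2 fold change of CDK6 turned to -0.029 in DESeq2 and -0.14 in limma-voom, and ran from -0.23 (without ATC4) to 0.24 (without ATC3) with a clone left out, with -0.20 without ATC2. That of CDKN1B turned to -0.38 with Parental_2, -0.16 with both untreated libraries and -0.042 without ATC4, and reached 0.15 without ATC1. Apart from the samples left out or exchanged, the cause was not tested. Of the members' ratios per clone 141 moved by less than 1 SD between the 4 clones and 19 by more. Other prior counts moved none by more, so the 19 came from library totals or from Parental_2 as reference. Of the folds at 48 h 25 stayed within their counting interval and 15 did not. The 25 include the folds at other minimum counts, a setting that cannot change a fold. All 15 came from library totals or from Parental_1 as reference. For the lists around the 10 genes, the exchange of untreated libraries was chosen after seeing the data. No paired analysis was possible because the labels give 1 untreated sample and match no untreated library to a given clone.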
